A study of Mus musculus with 44 samples.

Results

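Glutathione and the metallothioneins are small thiol-rich molecules with which liver cells take up oxidants, electrophiles and metal ions. The m6A peaks at 5 genes of this defence were examined in mouse liver. They were Gclc and Gclm, which encode the catalytic and the modifier subunit of glutamate-cysteine ligase, Gpx1, which encodes a glutathione peroxidase, Secisbp2, which encodes the protein that lets the ribosome read a stop codon as selenocysteine, and Mt2, which encodes metallothionein-2. Their peaks were those that carried the gene's Ensembl identifier or lay within its span in RefSeq, and they numbered 38 of the 17573 peaks in 8 deposited lists, where the 5 genes were among 1419 loci with a peak.

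N6-methyladenosine (m6A) is the commonest internal modification of messenger RNA, set by a nuclear writer complex and read by proteins that act on splicing, translation and decay. It lies mostly in long internal exons and near the stop codon. Glutamate-cysteine ligase carries out the step that limits glutathione synthesis, and the peroxidases spend glutathione to reduce hydrogen peroxide and lipid peroxides. Gpx1 is a selenoprotein, so its synthesis depends on the factor that Secisbp2 encodes. Metallothioneins bind zinc, copper and cadmium through clustered cysteines.

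All animals were male C57Bl/6J mice on a high-fat diet with 42% of the energy from fat. The 4 groups received vehicle (Control), Aroclor1260, PCB126 or Aroclor1260 and PCB126 together, by mouth, once, at week 2 of the 12 weeks of the study. Aroclor1260 is an industrial blend of polychlorinated biphenyls, while PCB126 is 1 defined biphenyl that binds the aryl hydrocarbon receptor. The sources used here give neither doses nor ages. Each group had 5 m6A immunoprecipitates, 5 input libraries and 1 IgG immunoprecipitate labelled as pooled, 44 libraries in all. The deposited lists hold 1 set of peaks per group, called once against input and once against IgG, with no value for any animal. The spread between animals is therefore unknown, no difference below was tested, and all exposures share the same control list for each reference.

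In liver lists, markers of hepatocytes were looked for first. Of 18 such markers, 11 had a peak in at least 1 list, whereas Alb, Apoa2, Apoc3, Serpina1a, Serpina1c, Cps1 and Ass1 had none. A peak needs enrichment over the reference as well as RNA, so a missing peak is no measure of expression. Of the markers of other liver cells, Kupffer cells had 1 of 9, endothelial cells 1 of 9, stellate cells 1 of 9, cholangiocytes 1 of 7 and lymphocytes 0 of 9. The share of all annotated genes with a peak was not counted, so the marker counts are a description only. The stellate marker Dcn and the Kupffer marker Cd5l had an input-referenced peak in the combination alone, with folds of 3.3 and 1.96, and both had a control peak against IgG with a fold of 2.2. The hepatocyte markers Trf and Ttr likewise had an input-referenced peak in the combination alone, with highest folds of 3.5 and 1.4. The endothelial marker Bmp2 had a peak in all 8 lists. The part of these cell types in the results was not tested. In bulk liver, fewer cells of a type and less RNA per cell cannot be told apart, and the peak lists measure neither.

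None of the 5 genes had a peak in control liver, with input or with IgG as reference. Across all 1419 loci with a peak in any list, 18.0% had one in the control list against input, 42.1% against IgG, and 55.9% had none with either. After Aroclor1260, no gene had a peak against input (16.1% of all loci did), and Gclc alone had peaks against IgG (42.4% of all loci). After PCB126, Secisbp2 alone had peaks against input (48.5% of all loci), and Gclc, Gpx1, Mt2 and Secisbp2 had them against IgG (77.4%). After the combination, Gclm, Gpx1 and Mt2 had peaks against input (50.6%), and Gclc, Gclm, Gpx1 and Mt2 against IgG (70.0%). These genes were picked with their calls in these lists known, so the counts describe the genes and support nothing about the exposures.

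**Figure D1:**
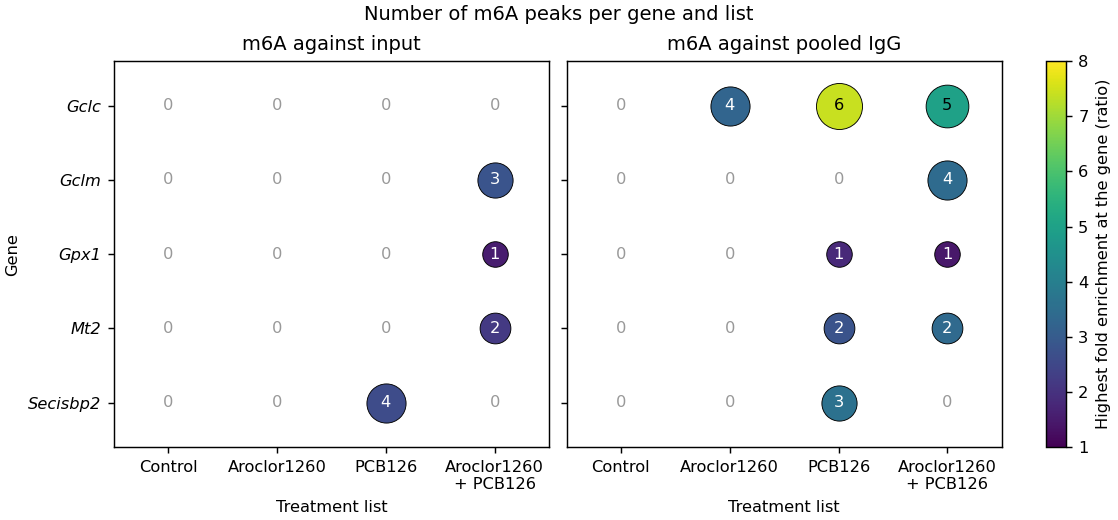
Number of peaks (digit and circle area) and highest fold enrichment (colour, a linear ratio) at each gene in each treatment list, with input as reference on the left and pooled IgG on the right. The control column holds 0 peaks in both panels, the Aroclor1260 column holds only the 4 Gclc peaks against IgG, and Gclc is coloured by a highest fold of 7.4 in the PCB126 list against IgG.

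A gene is called gained when an exposed list had a peak of it and the control list with the same reference had not. Against both references, 0 of the 5 genes were gained with Aroclor1260, where 0.987% of all loci were. With PCB126 it was 1 gene, Secisbp2, where 15.1% of all loci were gained, and with the combination 3 genes, Gclm, Gpx1 and Mt2, where 14.2% were. Against input alone the counts were 0, 1 and 3, beside 4.58%, 31.8% and 33.8% of all loci, and against IgG alone they were 1, 4 and 4, beside 12.8%, 40.1% and 33.3%. No gene was lost, since none had a control peak (6.41%, 1.27% and 1.20% of all loci were lost against input, and 12.5%, 4.79% and 5.29% against IgG). The input-referenced lists differ in length, from 506 to 2284 peaks. Among the 506 peaks of highest fold in each, none belonged to the 5 genes, so no gene was gained there. The genes' strongest input-referenced peaks had 53.3% of the PCB126 list and 61.4% of the combination list below them. The 0 follows from these ranks, and the share of all loci gained in the shortened lists was not counted.

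Gclc lies on chromosome 9 from 77754535 to 77794489 in GRCm38, the mm10 build. It had 15 peaks, all of them against IgG, which was more than any of the other 4 genes. After Aroclor1260 its 4 peaks had fold enrichments of 3.25, 2.73, 2.07 and 3.22 from the 5′ to the 3′ end. After PCB126 there were 6 peaks, with 4.67, 2.75, 4.0, 4.4, 7.4 and 7.0. After the combination there were 5, with 3.92, 2.15, 4.6, 3.2 and 5.0. Against input no treatment gave a Gclc peak, so its enrichment was called over the IgG background only.

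In the PCB126 list, the 2 strongest Gclc peaks lay side by side near the 3′ end, from 77793048 to 77793692 with a fold of 7.4 and from 77793841 to 77793940 with 7.0. Of the peaks in that list, 87.7% and 85.8% had a lower fold. In the other 2 lists a peak began at the same base, 77793048, with a fold of 3.22 after Aroclor1260 (64.3% of that list lower) and 3.2 after the combination (49.4% lower). The start of these peaks was 1441 bp from the end of the gene span. The combination list held a further peak from 77793445 to 77793841 with a fold of 5.0. At the 5′ end, peaks began at 77754585, 50 bp into the gene span, after PCB126 and after the combination, and at 77754783 after Aroclor1260, where a second block of 22 bp followed 9023 bp further on.

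A Gclc peak in the middle of the gene was made of several separate exonic blocks, and its first 4 were the same in all 3 lists. Blocks of 39, 183, 114 and 59 bp, from 77775153 to 77781142, were called after each exposure. Their last part differed, with a further block of 102 bp after Aroclor1260 and 52 bp after the combination, whereas the PCB126 peak ran through 7 blocks to 77785840. The fold of this peak, 2.73, 2.75 and 2.15, was the lowest of Gclc after PCB126 and the combination and the second lowest after Aroclor1260. With an overlap of at least 1 bp, all 4 Aroclor1260 peaks were found after PCB126 and all 6 PCB126 peaks after the combination. The PCB126 peak with a fold of 7.0 was found there by a single base, 77793841. Of the 6 PCB126 peaks, 5 were found after Aroclor1260. With 50% reciprocal overlap, 2 Aroclor1260 peaks were found after PCB126 and 3 PCB126 peaks after the combination.

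**Figure D2:**
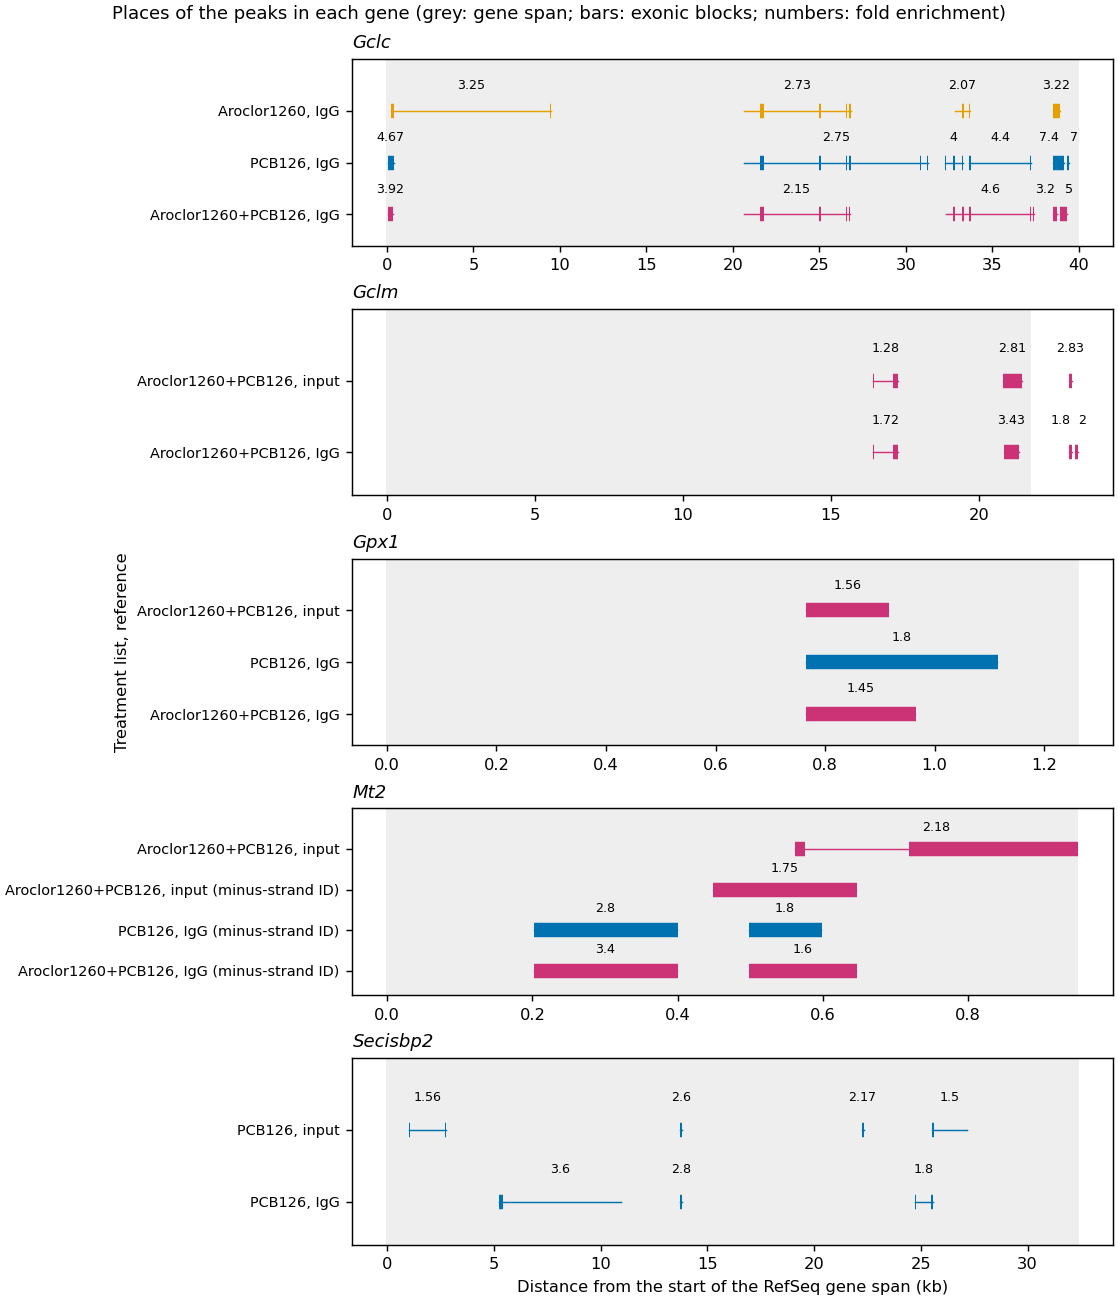
Places of the peaks along each gene, in kb from the start of the RefSeq span (grey), with bars for exonic blocks, thin lines for the gaps between them and numbers for the fold enrichment. The 3 Gclc tracks share the starts of their middle and 3′ peaks, the last Gclm peaks lie beyond the grey span, and all Mt2 peaks against IgG belong to a minus-strand identifier.

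Gclm, on chromosome 3 from 122245487 to 122267215, had peaks in the combination only, with both references. Against input there were 3, with fold enrichments of 1.28, 2.81 and 2.83. Against IgG there were 4, with 1.72, 3.43, 1.8 and 2.0. The widest peak lay near the 3′ end of the span, from 122266289 to 122266938 against input and from 122266339 to 122266838 against IgG, 650 and 500 bp of a single block. A peak from 122261925 to 122262747 was called with the same borders against both, as 2 blocks of 3 and 148 bp. All 3 input-referenced peaks were found against IgG, also with 50% reciprocal overlap.

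The input-referenced peak with a fold of 2.83, the highest at Gclm in that list, lay outside the RefSeq gene. It ran from 122268535 to 122268635 and started 1320 bp past the end of the span, and 2 of the IgG-referenced peaks lay 1320 and 1520 bp past it. They carried the Gclm identifier in the authors' files. Inside the span the highest input-referenced fold was 2.81, and 60.9% of the combination list had a lower one. No Gclm peak was called after PCB126 or Aroclor1260 alone with either reference. The difference between the combination and either compound was not tested, because each is a single list.

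Gpx1 is a short gene on chromosome 9 from 108339080 to 108340342. It had 1 peak in each of 3 lists, and all began at 108339846, 766 bp into the gene span. The peak reached 108339995 in the combination against input, with a fold of 1.56, 108340045 in the combination against IgG, with 1.45, and 108340194 after PCB126 against IgG, with 1.8. These are low values in their lists, where 15.6%, 3.80% and 10.2% of the peaks had a lower fold. The p-values of all 3 are listed as 0 in the authors' files, which was so for 5.83% of all peaks. Low enrichment thus went with the smallest listed p-values at this gene.

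Secisbp2, on chromosome 13 from 51651682 to 51684044, had peaks after PCB126 only, with both references. Against input there were 4, with folds of 1.56, 2.6, 2.17 and 1.5. Against IgG there were 3, with 3.6, 2.8 and 1.8. The peak from 51665392 to 51665492, a single block of 101 bp, was the same with both references, and 53.3% of the input-referenced and 37.7% of the IgG-referenced PCB126 peaks had a lower fold. The others moved with the reference. Of the 4 input-referenced peaks 2 overlapped an IgG-referenced one by at least 1 bp, and 1 did so by 50% of both spans. The strongest IgG-referenced peak, from 51656912 to 51662621, had none against input. The false discovery rates of the input-referenced peaks were 6.2e-04 for the first pair and 1.1e-03 for the other, from 5′ to 3′.

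Gpx1 and Secisbp2, a selenoprotein gene and one for a factor of selenoprotein synthesis, had 1 list in common, PCB126 against IgG. Against input the Gpx1 peak stood in the combination and those of Secisbp2 in PCB126. Other parts of the selenocysteine machinery had no peak, with 1 of 13 listed genes, Secisbp2 itself, in any list. Of 24 selenoprotein genes, 4 had a peak, Gpx1 included. Gpx1 and Secisbp2 were picked with their peaks known, and the share of all annotated genes with a peak was not counted. Msrb1, a methionine sulfoxide reductase, had IgG-referenced peaks after Aroclor1260 and the combination, with folds of 1.68 and 2.2, and Selenop, which encodes the selenium carrier of plasma, had 1.42 and 2.32 in the same lists.

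Mt2, on chromosome 8 from 94172618 to 94173567, had 6 peaks in 3 lists, of which 5 carried another identifier, ENSMUSG00000110588, on the minus strand. The files do not pair this identifier with a name. The only peak of the Mt2 identifier was called in the combination against input, with a fold of 2.18 and 42.9% of the list lower. It had a block of 13 bp from 94173180 and, after a gap of 143 bp, a block of 233 bp that ended at 94173568, 1 bp past the RefSeq end. The false discovery rate of this peak was 1.0e-04.

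The minus-strand peaks at Mt2 lay from 94173067 to 94173264 in the combination against input, with a fold of 1.75, and from 94172820 to 94173017 and 94173116 to 94173264 against IgG, with 3.4 and 1.6. After PCB126 against IgG they lay from 94172820 to 94173017 and 94173116 to 94173215, with 2.8 and 1.8. The input-referenced one covered the 13 bp block of the plus-strand peak and 72 bp of the gap behind it. The sources used here do not say whether reads were counted by strand, so reads of Mt2 and of a transcript opposite to it cannot be told apart. By the Mt2 identifier alone, Mt2 had a peak in 1 list, and it was not called against IgG. Mt2 would then not be gained against both references, and the combination would count 2 genes in place of 3.

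Mt1 is the neighbour and close relative of Mt2, 5315 bp downstream. Whether the 2 genes share reads was not tested. Mt1 had 2 control peaks against IgG, with folds of 1.37 and 1.57, and 1 peak after PCB126 against input, with 1.25. Against IgG it had 3 peaks after PCB126, with 2.15, 2.0 and 1.71, and 1 after the combination, with 2.8. Mt1 thus had a control peak where Mt2 had none, and it lacked the input-referenced peak that Mt2 had in the combination.

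By locus, with both strands joined, Mt2 and Gpx1 had peaks in the same 3 lists, and their upstream sequences are shown because of that. MeRIP measures RNA, and nothing here was measured on promoters. The 250 bases before each gene are from RefSeq, GRCm38.p6, plus strand, chr8:94172368-94172617 for Mt2 and chr9:108338830-108339079 for Gpx1. Capitals mark matches to the core of the metal response element, searched as TGCACNC and TGCGCNC on both strands.
Mt2: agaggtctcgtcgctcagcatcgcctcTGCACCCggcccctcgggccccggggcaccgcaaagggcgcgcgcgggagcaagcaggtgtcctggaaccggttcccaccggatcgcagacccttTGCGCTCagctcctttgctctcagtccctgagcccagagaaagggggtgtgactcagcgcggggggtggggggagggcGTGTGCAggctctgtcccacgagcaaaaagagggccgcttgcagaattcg
Gpx1: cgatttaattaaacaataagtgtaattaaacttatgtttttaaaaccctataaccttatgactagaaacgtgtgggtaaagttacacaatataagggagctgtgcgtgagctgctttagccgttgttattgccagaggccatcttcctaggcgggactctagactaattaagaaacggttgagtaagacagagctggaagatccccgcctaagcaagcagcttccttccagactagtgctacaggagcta
The Mt2 stretch has 3 matches and the Gpx1 stretch 0. In the table's whole windows of 300 bases, which run 50 bases into the gene, Mt2 had 4 matches, Gclm 3, and Gpx1 and Secisbp2 0, and 25.7% of the 32851 windows of all genes had at least 1. The core of aryl hydrocarbon receptor sites, GCGTG, was matched 3 times at Gclm, 2 times at Mt2, 1 time at Gpx1 and 0 times at Secisbp2, with a match in 32.4% of all windows. At Mt2 1 of these overlaps a metal response match. The antioxidant response core TGACNNNGC was matched 1 time at Gclm, where it overlaps a metal response match, 1 time at Mt2, and 0 times at Gpx1 and Secisbp2, with a match in 12.4% of all windows. Gclc was not among the windows used here.

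Within each list, 20 of the 38 peaks had a fold below the list's median, 3 of 15 at Gclc, 4 of 7 at Gclm, 3 of 3 at Gpx1, 5 of 6 at Mt2 and 5 of 7 at Secisbp2. Against input the medians were 2.45 after PCB126 and 2.4 after the combination, and the highest folds of the genes were 2.6 and 2.83. Against IgG the medians were 2.62, 3.3 and 3.2 for Aroclor1260, PCB126 and the combination, and Gclc reached 3.25, 7.4 and 5.0. Of the 38, 15 spanned more than 1 block (39.5%, beside 29.9% of all peaks). Fold enrichments are set against a different reference library in each list, so a peak's rank is given within its own list, and folds from several lists are set side by side without a reading of change.

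**Figure D3:**
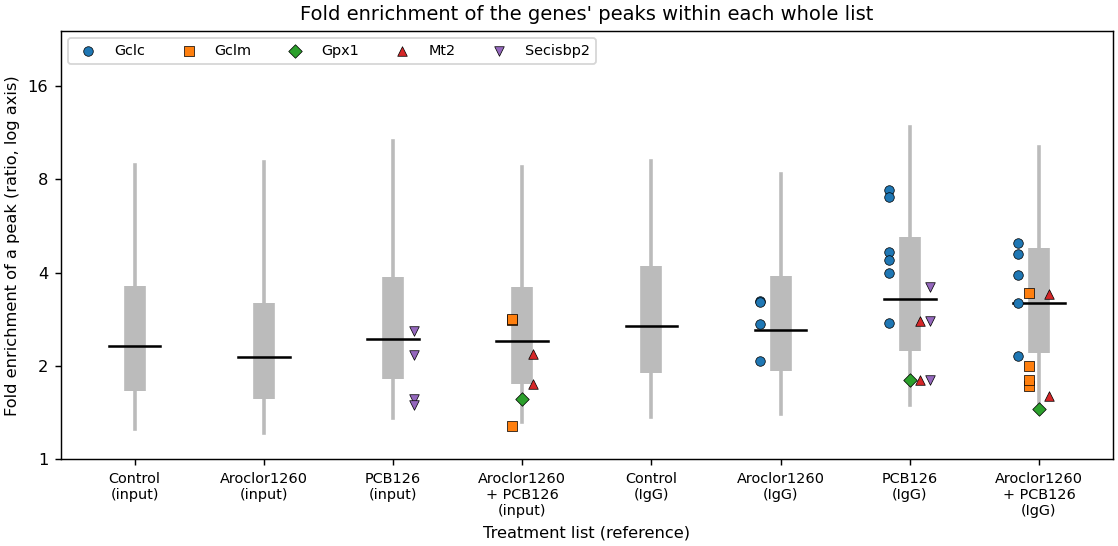
Fold enrichment of every peak of the 5 genes (symbols, log axis) beside the whole list it stands in, with a thick bar from the 25th to the 75th percentile, a thin line from the 5th to the 95th and a black line at the median. In the PCB126 list against IgG, whose median is 3.3, Gclc peaks range from 2.75 to 7.4, and Gpx1 peaks lie near the lower end of their lists.

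The other genes of the same pathways were counted in 9 lists with 168 genes in all, of which 29 had a peak in any list and 24 were not among the 5 genes. Of these 24, the input-referenced lists held 5 for Control (20.8%, beside 18.0% of all loci), 6 after Aroclor1260 (25%, beside 16.1%), 11 after PCB126 (45.8%, beside 48.5%) and 13 after the combination (54.2%, beside 50.6%). Against IgG the counts were 7, 15, 16 and 21 (29.2%, 62.5%, 66.7% and 87.5%, beside 42.1%, 42.4%, 77.4% and 70.0%). Gained against input were 3 of the 24 with Aroclor1260 (12.5%, beside 4.58% of all loci), 7 with PCB126 (29.2%, beside 31.8%) and 8 with the combination (33.3%, beside 33.8%). Gained against IgG were 9, 10 and 14 (37.5%, 41.7% and 58.3%, beside 12.8%, 40.1% and 33.3%). Gained against both references were 2, 4 and 6 (8.33%, 16.7% and 25%, beside 0.987%, 15.1% and 14.2%), so the PCB126 counts lay near the share of all loci.

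Glutathione synthesis and turnover had 2 of 15 genes with a peak, Gclc and Gclm, and the peroxidases and peroxiredoxins had 1 of 13, Gpx1. These genes were picked with their peaks known. For such counts over whole gene lists, here and below, the share of all annotated genes with a peak was not counted. Of 23 glutathione transferases, 5 had one. Gsta3, an alpha-class transferase, had folds of 1.44 after PCB126 and 3.08 after the combination against input, and 1.84, 1.88 and 1.81 with Aroclor1260, PCB126 and both against IgG, with no control peak. Gstz1, which also acts in tyrosine breakdown, had 1.31 and 2.42 in those lists and a control peak of 2.3 against IgG. The microsomal transferase Mgst1 had 2.14 in the control and 3.9 in the combination against input, 2.74 in the combination against IgG, and none after either compound alone.

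Among 31 genes of metallothionein, zinc and copper handling, 3 had a peak. The zinc exporter gene Slc30a1, which zinc induces along with the metallothioneins, had input-referenced peaks in every group, with highest folds of 3.24 in the control, 2.79 with Aroclor1260, 8.12 with PCB126 and 6.89 with both. Against IgG it had peaks only after PCB126 and the combination, with up to 13.0 in the combination, and its peaks came from identifiers on both strands. Of 18 iron genes, 4 had a peak. Cp, which encodes the ferroxidase ceruloplasmin, had one in all 8 lists, from 1.5 to 4.74. Hjv, a co-receptor that governs hepcidin, had none in the control and input-referenced folds of 4.57 after PCB126 and 4.06 after the combination. Against IgG its highest folds were 3.6 with Aroclor1260, 28.4 with PCB126 and 7.0 with both. Trf, the transferrin gene, had 5 input-referenced peaks in the combination and none in the other groups, with a highest fold of 3.5. Against IgG it had 4, 10 and 6 peaks with Aroclor1260, PCB126 and both, with highest folds of 4.6, 3.6 and 4.6, and all Trf peaks carried a minus-strand identifier.

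The Nrf2 list, with the regulator of antioxidant genes, its partners and its targets, had 9 of 29 genes with a peak, Gclc and Gclm included. Bach1, a repressor that competes with Nrf2, had input-referenced folds of 3.11 in the control, 6.76 after PCB126 and 5.43 after the combination, and none after Aroclor1260. Against IgG it had peaks in all 4 groups, 8 of them after Aroclor1260, with highest folds of 7.4 in the control, 4.0 with Aroclor1260, 14.4 with PCB126 and 6.6 with both. Mafg, a small Maf partner of both, had input-referenced folds of 1.75, 3.17 and 3.0 with Aroclor1260, PCB126 and both, IgG-referenced ones of 4.8, 5.2 and 5.6, and no control peak with either reference. Osgin1 had 3.84 after PCB126 alone against input, but peaks in all 4 groups against IgG, with 5.8 in the control. Cbr1, a carbonyl reductase, had 2.05 in the combination alone against input, but 1.6, 2.2 and 4.4 with Aroclor1260, PCB126 and both against IgG. Tkt, the transketolase gene, had 2.66 after Aroclor1260 and 1.6 after PCB126 against IgG only.

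In the list of thioredoxin, superoxide dismutases and catalase, 4 of 17 genes had a peak. Sod3, the extracellular superoxide dismutase gene, had one in all 8 lists, from 1.32 to 4.1. Txnip, which encodes an inhibitor of thioredoxin, had input-referenced folds of 2.84, 5.65 and 7.14 after Aroclor1260, PCB126 and the combination, IgG-referenced ones of 5.05, 14.8 and 6.15, and no control peak with either reference. Glrx5, a mitochondrial glutaredoxin gene, had 1.5 after Aroclor1260 and 1.9 after the combination against input, and 2.7 in the control, 2.04 with Aroclor1260 and 2.64 with both against IgG.

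**Figure D4:**
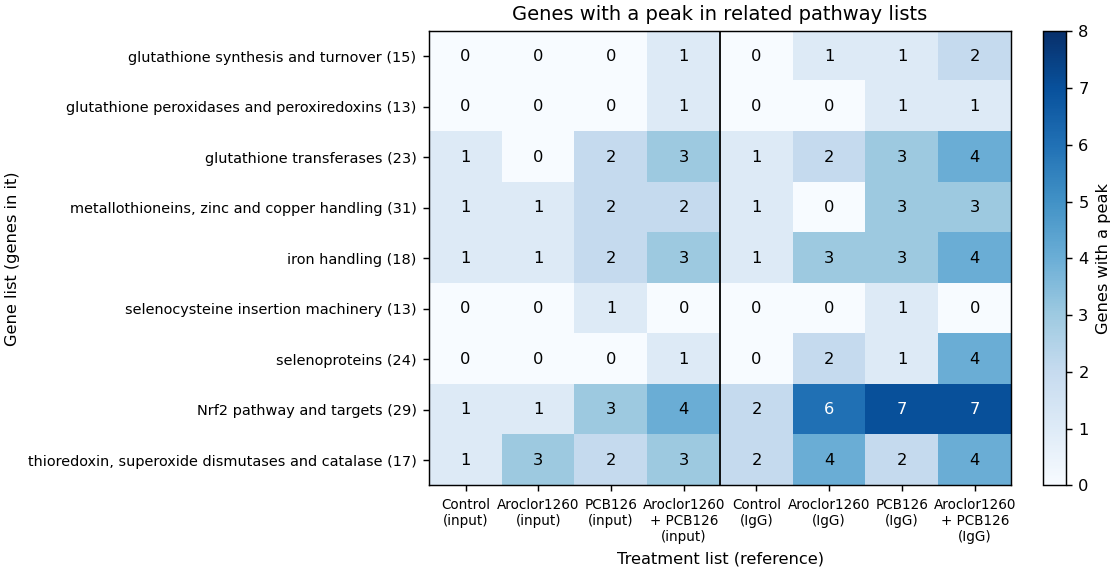
Number of genes with a peak (digit and shade) in each of 9 pathway lists, with the genes in each list in brackets, in the 4 input-referenced lists on the left of the line and the 4 IgG-referenced lists on the right. The Nrf2 list reaches 7 of 29 genes after PCB126 and the combination against IgG, the thioredoxin list reaches 4 of 17, and the 5 genes described above are counted in these lists too.

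Loci with the same presence over the 8 lists as each gene were then counted. Gclc shared its presence, in the 3 exposed lists against IgG, with 16 other loci, Gclm with 40, Gpx1 and Mt2 with 31 each, each counting the other, and Secisbp2 with 56. Among the named ones, likeness was the sum over the 8 lists of absolute differences in highest fold, with absence as 0. Nearest to Gclc were the semaphorin gene Sema4g (1.05), 1600014C10Rik (2.0) and Pm20d1 (3.25). Nearest to Gclm were the mitochondrial NAD kinase gene Nadk2 (0.330), the early endosome gene Rab5a (0.400) and Cmah (0.420). Nearest to Gpx1 were the dynein light chain gene Dynlrb1 (0.870), Tm2d2 (1.23) and Tmem243 (1.54). Nearest to Mt2 were Ap5s1 (0.980), the vesicle traffic gene Rab8a (1.15) and Ubxn1 (1.73). Mt2 was taken here with both strands joined, and its IgG-referenced folds, 2.8 and 3.4, came from the minus-strand identifier alone. Its presence, shared with Gpx1, and its nearest loci therefore belong to the locus and not to the Mt2 identifier. Nearest to Secisbp2 were Dcbld1 (0.270), Rmdn2 (0.5) and Mprip (0.670). None of these 15 was among the genes of the 9 pathway lists.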

How the data were processed

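The 8 files are titled as output of MeTPeak, a peak caller for MeRIP. Per the submitters' processing notes, the build was mm10 and the tools were BWA 0.7.17, Trimmomatic, FastQC 0.10.1 and bcl2fastq 2.20.0.422. The sources used here do not give the caller's version, settings, annotation or strand handling, or the sequencing depth. Per the file headers, each peak carries a score, a log false discovery rate and a fold enrichment. They were read here as the authors' p-value, log10 false discovery rate (at most 0.0490 once converted) and linear ratio of m6A to reference. These deposited values were ranked and filtered within a list, and stand side by side across lists as a description.

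Starts were counted from 1. Identifiers were named by the RefSeq gene (GRCm38.p6) that held at least 80% of their exonic peak bases, the only protein-coding one where several did. Of 1512 identifiers 1398 were named, and joining names gave 1419 loci. Shared peaks had spans on 1 strand with an overlap of 1 bp or more. All 5 genes are named, pathway genes with a peak in an input-referenced list or in at least 2 lists, and the 3 nearest loci in presence and fold. Genes, lists and rules were chosen with earlier results of these data known. Naming and overlap were tested on simulated single-block, plus-strand peaks in genes that did not overlap, so peaks of several blocks and opposite strands were not tested. Naming ignored the strand, and overlap used whole spans with the gaps between blocks. Python 3.11.15 and pandas 2.3.3 were used. Alternatives were IgG as reference, stricter thresholds, equal list lengths, other gene assignments and 50% reciprocal overlap.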

Additional observations from a re-analysis of the deposited data

How the results depend on the processing

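With IgG as reference, the genes with a peak changed from 0 to 1 after Aroclor1260 and from 1 to 4 after PCB126. In the combination they changed from 3 to 4, and the genes gained changed likewise after each exposure. The peaks changed from 0 to 4, from 4 to 12 and, in the combination, from 6 to 12. The cuts that follow were applied to the input-referenced lists only. With the 506 strongest peaks of each, the counts of genes, peaks and genes gained after PCB126 and the combination fell to 0. A fold of at least 2 left 2 peaks after PCB126 and 3 after the combination, and removed Gpx1, so that 2 genes were gained in place of 3. Shares of all loci under these cuts were not counted, so the counts describe the 5 genes only. A false discovery rate of at most 0.01 changed none of the input-referenced counts. In the combination against input, genes were also assigned by Ensembl identifier alone, plus-strand identifiers alone or the RefSeq span alone. The latter 2 were chosen after seeing the data. Each left 1 Mt2 peak in place of 2, but not the same one. Both identifier-based assignments kept the peak of the Mt2 identifier (fold 2.18), and the span alone kept the minus-strand peak (1.75). The span alone also left 2 Gclm peaks in place of 3. With 50% reciprocal overlap, 1 in place of 2 PCB126 peaks found against input were also found against IgG, and 5 in the combination either way.

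No paired analysis was possible because each list pools a treatment and no column belongs to an animal, and leaving out a replicate was not possible either. Depth is unknown, and a missing peak is no evidence of missing methylation.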

Other observations

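Of all peaks, 86.3% had an exonic width within 2 bp of a multiple of 50 bp, as had 78.9% of the 38 peaks at the 5 genes. Whether starts fall at fixed positions was not tested.

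The p-value was listed as 0 for 8 of the 38 peaks (21.1%, beside 5.83% of all peaks). These were the 3 Gpx1 peaks and the 5 minus-strand peaks at Mt2, with folds from 1.45 to 3.4.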
